A study of Mus musculus with 10 samples.

Results

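The step from the MII oocyte, the mature egg arrested in the second meiotic metaphase, to the middle 2-cell embryo was described across all genes of the deposited table. It was followed in 4 of the 10 RNA-seq libraries of the series: 2 of MII oocytes and 2 of control 2-cell embryos. Of 21437 genes listed, 5947 had at least 1 FPKM (read fragments scaled for gene length and for the size of the library) in at least 2 of these 4 libraries and were tested. The strain label of all 4 libraries is ICR and the genotype wild type, from mice aged 7 weeks. The collection protocol instead gives F1 females mated with F1 males for the embryos, and the study's methods give ICR females for the oocytes, so strain and stage cannot be told apart. Superovulation by hormones is described for the females of both stages. The time between the hCG injection and sampling was 16 hours for oocytes and 40 hours for 2-cell embryos. Culture in KSOM medium is described only for the embryos, so culture and stage cannot be told apart either. The control embryos carry no Ago2 knockdown, the perturbation that other libraries of the series carry. A scrambled siRNA is described as the negative control, but whether these embryos received it is not stated. Neither the number of cells behind a library nor separate collections for the replicates is given, so the p-values measure only the spread between these libraries, which may be technical.

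A fully grown oocyte is transcriptionally silent and lives on mRNAs stored during its growth. After fertilization those maternal mRNAs are cleared by deadenylation and decay, a process called maternal mRNA degradation (MRD), while the embryo's own genome is switched on, which is called zygotic genome activation (ZGA). In the mouse the main burst of ZGA falls in the 2-cell stage and brings up multicopy gene families, such as the Zscan4, Tdpoz, Usp17l and eIF1A-like families, that are silent in the oocyte. A fall between these stages is therefore a balance of decay and new synthesis, and FPKM can show only the net level relative to the other mRNAs of the library, so fewer molecules per embryo and a smaller share of the mRNA cannot be told apart.

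Oocyte markers were mostly, but not all, present in the oocyte libraries. Of 14 oocyte surface and secreted factors 11, and of 5 oocyte transcription factors 3, had at least 1 FPKM in both. Zp1 (0 and 0.569 FPKM), Cd9 (0.0847 and 0.125 FPKM) and Figla (0.637 and 0.528 FPKM) were near 0, while Fgf8 (0.458 and 7.81 FPKM) and Foxo3 (0 and 18.7 FPKM) differed between the libraries. Of the cumulus and granulosa cell markers, 4 of 20 were in the table and each was listed at 0 in all 4 libraries. Of 17 spermatid markers, 8 were in the table and 3 were tested, of which Spaca1 fell. Among blood and macrophage markers, 7 of 10 were in the table and only Hba-a1, an alpha globin gene, was tested; it was listed at 0 in both oocyte libraries and stood at 2.67 and 3.13 FPKM in the 2-cell libraries.

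One property of the oocyte values touches every comparison below. Of the values of at least 1 FPKM, 2190 (40.2%) and 2228 (42.8%) in the 2 oocyte libraries were written with 7 or 8 significant digits, against 0 in both 2-cell control libraries. In genes with 1 annotated transcript, 79.9% and 85.2% of oocyte values that begin with the digit 1 had this form, against 2.65% and 2.01% of those that begin with 4 to 9. Sums of 2 numbers with 6 significant digits have this pattern, but no such step is described in the sources used here. The oocyte FPKM summed to 450124 and 458874, and those of the 2-cell libraries to 196312 and 203645. Results are therefore given with FPKM as deposited and, beside them, as calls that remained under all 5 scalings: as deposited, scaled to the same median, scaled to the same sum, quantile normalized, and with the oocyte values halved.

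With FPKM as deposited, 2167 genes (36.4%) differed between the stages in limma at a Benjamini-Hochberg adjusted p below 0.05. Of these, 694 (11.7%) stood higher and 1473 (24.8%) lower in 2-cell embryos, and the 2 libraries of one stage lay wholly above those of the other for all of them. The share called higher depended on the scaling, and the median log2 change of all genes moved from -0.57 as deposited to -0.05 at equal medians, 0.03 after quantile normalization, 0.20 with oocyte values halved and 0.40 at equal sums. At those 4 scalings 749 genes were higher and 826 lower, 888 higher and 931 lower, 965 higher and 819 lower, and 1165 higher and 721 lower, in the same order. The calls made under all 5 scalings were 624 higher (10.5%) and 653 lower (11%). Of these, 304 of the 624 and 605 of the 653 were still called as deposited with each of the 4 libraries left out in turn. The 624 fell to 346 without MII oocyte control replicate 1, 354 without MII oocyte control replicate 2 and 372 without 2-cell control replicate 2. The higher and lower counts fell to 386 and 951 without MII oocyte control replicate 1, to 376 and 938 without replicate 2, and to 403 and 1035 without 2-cell control replicate 2.

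**Figure D1:**
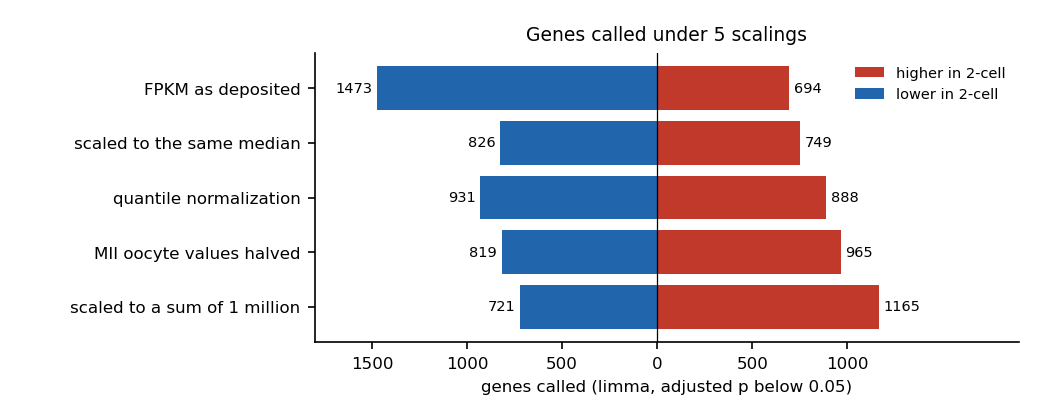
Number of genes called higher (red, right) and lower (blue, left) in 2-cell embryos than in MII oocytes by limma at an adjusted p below 0.05, for the FPKM as deposited and 4 other scalings of the same 5947 genes. The split moves from 694 higher and 1473 lower as deposited to 1165 higher and 721 lower at equal sums.

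The changes were often from or to nothing. Among the genes called higher, 218 were listed at 0 in both oocyte libraries, and among those called lower 263 were listed at 0 in both 2-cell libraries. Of the genes tested, 733 entered only through the 2-cell libraries and 791 only through the oocyte libraries, so a gene of these groups had to differ between stages, and counts of members that moved are given as descriptions. For every list, the shares of all genes to set beside its counts are 24.8% lower and 11.7% higher as deposited. Under all 5 scalings they are 11% lower and 10.5% higher. In both stages, several genes that every cell uses were at or near 0, among them Gapdh at 0.0299 to 0.167 FPKM. A gene at 0 in both libraries of a stage is therefore reported as listed at 0, without a fold change, and where 1 library of a stage is at 0 the change depends on the added 1 FPKM. The smallest two-sided p of an exact permutation of 2 libraries against 2 is 0.333, and all calls rest on the limma fit, whose spread comes from all 10 libraries. Of the 183 named genes that were called, 100 kept their call under all 5 scalings and with each of the 4 libraries left out in turn; for genes given with their values that lost it when a library was left out, the highest adjusted p is given.

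**Figure D2:**
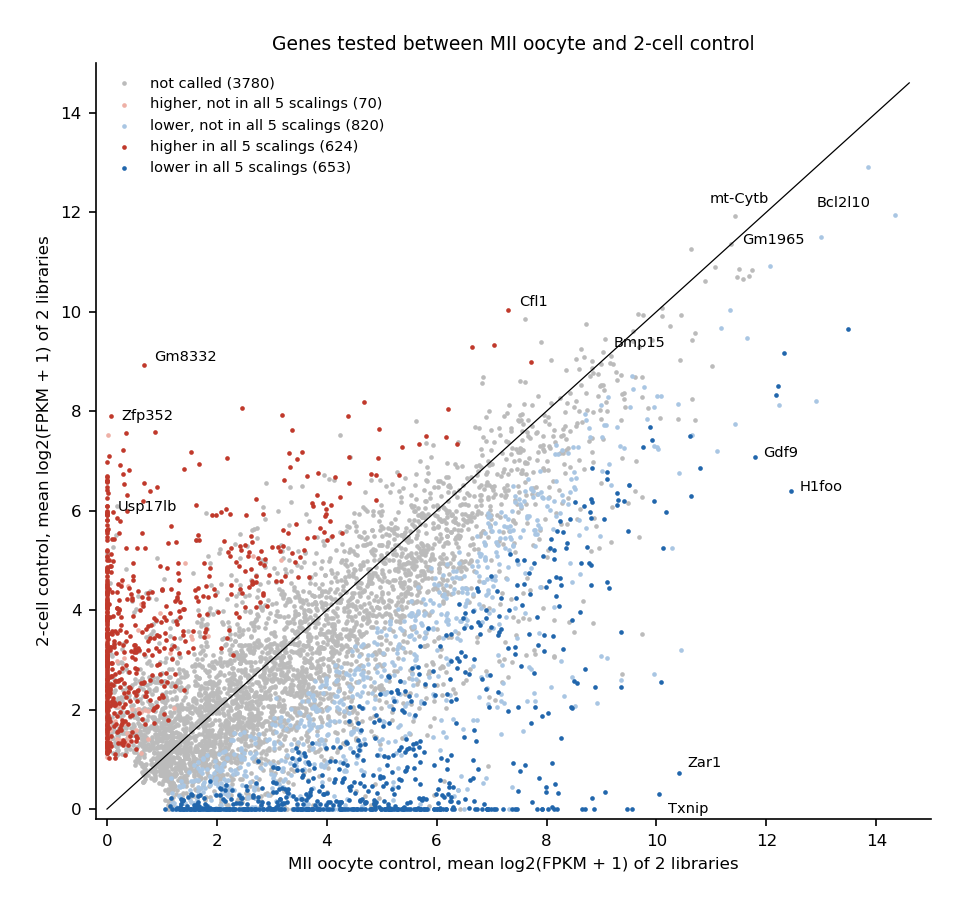
Mean log2(FPKM + 1) of the 2 MII oocyte control libraries (horizontal) and the 2 control 2-cell libraries (vertical) for the 5947 genes tested, with the line of equality. Dark red and dark blue points were called higher (624) and lower (653) under all 5 scalings. Light points were called as deposited but not under all 5, and grey points were not called as deposited.

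Many of the largest rises came from uncharacterised or multicopy genes. Gm8332 stood at 0.261 and 1.0 FPKM in oocytes against 391.6 and 609 FPKM in 2-cell embryos, a log2 change of 8.27 ± 0.45 (SE; adjusted p = 4.17e-05). Zfp352, a zinc-finger gene, went from 0.113 and 0 to 197 and 290 FPKM (adjusted p = 0.000435). The naming rule took only called genes whose oocyte and 2-cell values did not overlap, so that separation is no further support. The other rises that the naming rule selected were Gm4340, Gm5435, Gm5039, AF067063, B020031M17Rik, Cd63-ps, Znhit3, Gm5699, Gm8994, Gm9113 and Gm20767, with log2 changes from 5.57 to 7.21. All of them kept the call under every scaling and with every library left out.

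Genes listed at 0 in both oocyte libraries reached similar levels. Gcsh, which encodes a carrier protein of mitochondrial glycine cleavage, stood at 79.6 and 132 FPKM in 2-cell embryos (adjusted p = 0.000271). Gm5698 stood at 83.01 and 122 FPKM (adjusted p = 0.000118) and Gm4778 at 80.4 and 116 FPKM (adjusted p = 0.000203). Xlr3c, an X-linked gene of a multicopy family, reached 84.3 and 105 FPKM, but its adjusted p of 0.0267 rose to 0.121 without MII oocyte control replicate 2. Gm2022 reached 75.7 and 205 FPKM and its adjusted p of 0.0114 likewise rose, to 0.0698.

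Some of these rises were still present at the next stage and others were not. In the 4-cell control libraries, Cd63-ps stood at 1743 and 1644 FPKM, Gcsh at 704 and 933 FPKM and Znhit3 at 241 and 358 FPKM, each above its 2-cell level. B020031M17Rik and Gm20767 were listed at 0 in both, and Gm8332 stood at 0.346 and 0 FPKM. Of the 624 genes higher under all 5 scalings, 218 (34.9%) were below 1 FPKM in both 4-cell controls and 233 (37.3%) were above both 2-cell values. Over all genes tested, the same shares were 33.6% and 30.1%.

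**Figure D3:**
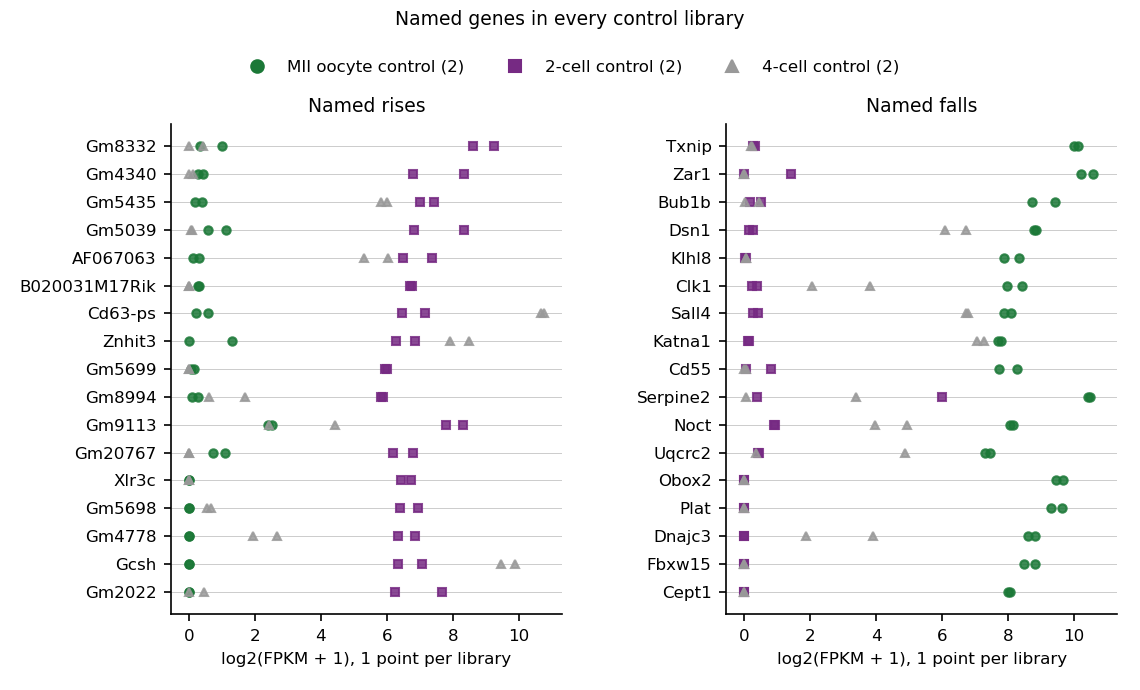
Level of the 17 rises (left) and 17 falls (right) selected by the naming rule, as log2(FPKM + 1) with 1 point per library. Green circles are MII oocyte controls, purple squares 2-cell controls and grey triangles 4-cell controls. The oocyte and 2-cell points of every gene shown stand apart because the rule took only such genes.

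The families known to burst in the 2-cell embryo gave the highest share of rises of all lists with at least 5 genes tested. Of 41 genes of these families in the table, 28 were tested, 24 of them rose and 0 fell, and 23 rose under all 5 scalings. Of all genes, 11.7% rose as deposited and 10.5% under all 5 scalings. The list is made of genes known to be high at this stage, and the 41 summed to only 96.25 and 130.1 FPKM in the oocyte libraries. Members near 0 in oocytes could be tested only through the 2-cell libraries. A high share of rises was therefore built in, and the counts are a description. The median log2 change of the 28 was 4.20, beside -0.57 for all genes tested. Usp17lb, which encodes a ubiquitin protease of the Usp17-like family, was listed at 0 in both oocyte libraries and stood at 54.5 and 81.9 FPKM in 2-cell embryos (adjusted p = 4.6e-05). Tdpoz4, a speckle-type BTB gene, stood at 48.3 and 62.3 FPKM after being listed at 0 (adjusted p = 0.000679). Duxf3, a copy of the Dux homeobox gene that acts upstream of this program, moved from 0.123 and 0.0906 to 6.20 and 4.94 FPKM (adjusted p = 0.0176). Tcstv3 was already present in oocytes, at 17.95 and 33.9 FPKM, and reached 273 and 306 FPKM (3.50, adjusted p = 0.000622).

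The 4 members that were not called were Cml2, Sp110, Tcstv1 and Gm21761. Tcstv1, next to Tcstv3 on the chromosome, stood at 71.6 and 81.5 FPKM in oocytes against 56.6 and 62.1 FPKM in 2-cell embryos (adjusted p = 0.474). Gm21761 had 1.22 and 160 FPKM in the 2-cell libraries, so its replicates disagreed (adjusted p = 0.188). With each library left out in turn, 18 of the 24 kept the call. Members of these families are near-identical copies that share reads, and the split of reads among them is uncertain.

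Promoter sequences (250 bases before to 50 after the annotated start, from RefSeq on GRCm38.p6) were found for 13 of the 24 burst genes that rose. Those printed here each hold a match to the letters searched and are not a typical sample of the 13. Duxf3, Rfpl4b, Spz1, Tdpoz4, Ubtfl1 and Usp17la held no match and are not printed. Gm21319 and Usp17lc held a match and are not printed either. Each sequence is printed 5' to 3' on the gene's strand. Capitals mark GGATTA or its reverse complement TAATCC, the core bound by Obox and Otx homeodomain proteins, and TATAAA or its reverse complement, a TATA box.
Zfp352: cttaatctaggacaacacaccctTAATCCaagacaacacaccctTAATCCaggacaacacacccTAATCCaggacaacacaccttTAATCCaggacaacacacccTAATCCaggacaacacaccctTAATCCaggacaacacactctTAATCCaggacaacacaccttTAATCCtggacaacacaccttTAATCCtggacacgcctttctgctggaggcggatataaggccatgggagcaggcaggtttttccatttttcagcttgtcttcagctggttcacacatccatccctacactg
Gm4340: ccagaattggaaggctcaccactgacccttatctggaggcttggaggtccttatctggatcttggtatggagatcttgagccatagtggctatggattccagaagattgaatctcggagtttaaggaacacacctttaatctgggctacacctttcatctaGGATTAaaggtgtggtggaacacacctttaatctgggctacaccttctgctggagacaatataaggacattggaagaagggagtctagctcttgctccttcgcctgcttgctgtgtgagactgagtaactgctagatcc
Gm4027: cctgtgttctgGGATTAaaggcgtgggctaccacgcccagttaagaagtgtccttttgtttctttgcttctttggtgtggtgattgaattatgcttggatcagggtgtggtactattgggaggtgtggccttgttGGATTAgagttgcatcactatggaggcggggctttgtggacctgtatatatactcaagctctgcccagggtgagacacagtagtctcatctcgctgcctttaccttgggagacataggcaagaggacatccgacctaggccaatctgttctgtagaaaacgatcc
Tdpoz1: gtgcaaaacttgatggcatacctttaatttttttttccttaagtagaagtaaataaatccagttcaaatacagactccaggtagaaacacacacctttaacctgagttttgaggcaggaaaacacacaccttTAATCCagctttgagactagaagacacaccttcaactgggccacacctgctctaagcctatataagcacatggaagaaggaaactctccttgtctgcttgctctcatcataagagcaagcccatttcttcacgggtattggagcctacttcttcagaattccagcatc
Usp17lb: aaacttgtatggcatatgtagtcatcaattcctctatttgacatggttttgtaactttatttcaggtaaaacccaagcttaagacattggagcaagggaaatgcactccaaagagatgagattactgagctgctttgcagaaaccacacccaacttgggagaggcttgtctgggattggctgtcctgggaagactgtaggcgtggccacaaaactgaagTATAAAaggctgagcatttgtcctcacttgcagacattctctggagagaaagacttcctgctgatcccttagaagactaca
They lie at chr4:90218570-90218869, chr10:104193792-104194091, chr12:87618659-87618958 and, on the minus strand, chr3:93676234-93676533 and chr7:104842534-104842833.

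GGATTA on either strand was in 5 of these 13 promoters (Zfp352, Gm4340, Gm4027, Gm21319 and Tdpoz1), and in 1935 (7.16%) of 27025 promoters of the same length. In Gm4027 and Gm21319 a match lay in a near-identical stretch, and Tdpoz1 and Zfp352 shared bases just before TAATCC. The 5 are therefore not independent, and enrichment was not tested. In Zfp352 it occurred 9 times, as TAATCC in steps of 20 to 21 bases from 227 to 61 bases before the start. Only 8 of the 27025 promoters held it 3 or more times, and Zfp352 was the only one with 5 or more. TATAAA was in 2 of the 13 promoters, near the 14.2% of all promoters. These were Usp17lb, 31 bases before the start, and Usp17lc, 88 bases before it. Neither was found in the 11 promoters available for the 17 largest falls described below. With so few promoters and a share of 7.16% over all, the absence of GGATTA there says little. Only the exact letters were searched, so TATATAA, present in Txnip among the falls and in Tdpoz1 and Rfpl4b, was not counted. Shares over all rising genes were void as a comparison, since only 299 of the 624 genes that rose under every scaling had a promoter in the table. A match describes these letters and is not a binding site.

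Some genes that rose lay in runs along the chromosomes. Runs of at least 5 genes that rose under all 5 scalings, with gaps of at most 500 kb, occurred 9 times, and runs of falling genes 3 times. Over all genes tested, 10.5% rose and 11% fell under every scaling. A run begins and ends at a called gene, so a high share inside it follows from the definition. The counts inside runs are therefore descriptions, and the number of runs to be met without any grouping was not tested. The run with the most genes was the Tdpoz region (chr3:93628640-94266784, GRCm38), where 17 of 20 genes tested rose under every scaling and none fell. On chromosome 12 (87618869 to 88324026), 9 of 11 rose, among them Gm8332, Gm2022 and Gm5039. The exceptions there were Gm2042, at 314 and 343 FPKM in oocytes against 153 and 194 FPKM in 2-cell embryos (adjusted p = 0.0739), and Gm10436 (adjusted p = 0.12). The Tcstv region of chromosome 13 (119827961 to 120318178) held 9 of 12, and a run of predicted genes on chromosome 11 (60591721 to 60804703) held 8 of 11.

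The 3 runs of falling genes included one over the Fbxw cluster (chr9:109139447-110281409), where 7 of 15 genes tested fell under every scaling and none rose. These were 5 Fbxw genes, Cdc25a and Mir6236. The other 2 runs, on chromosomes 5 and 11, held 6 of 14 and 5 of 16 genes. Each of these 2 also held 1 gene that rose under every scaling. Neighbouring copies share reads, so members of a run are not independent.

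**Figure D4:**
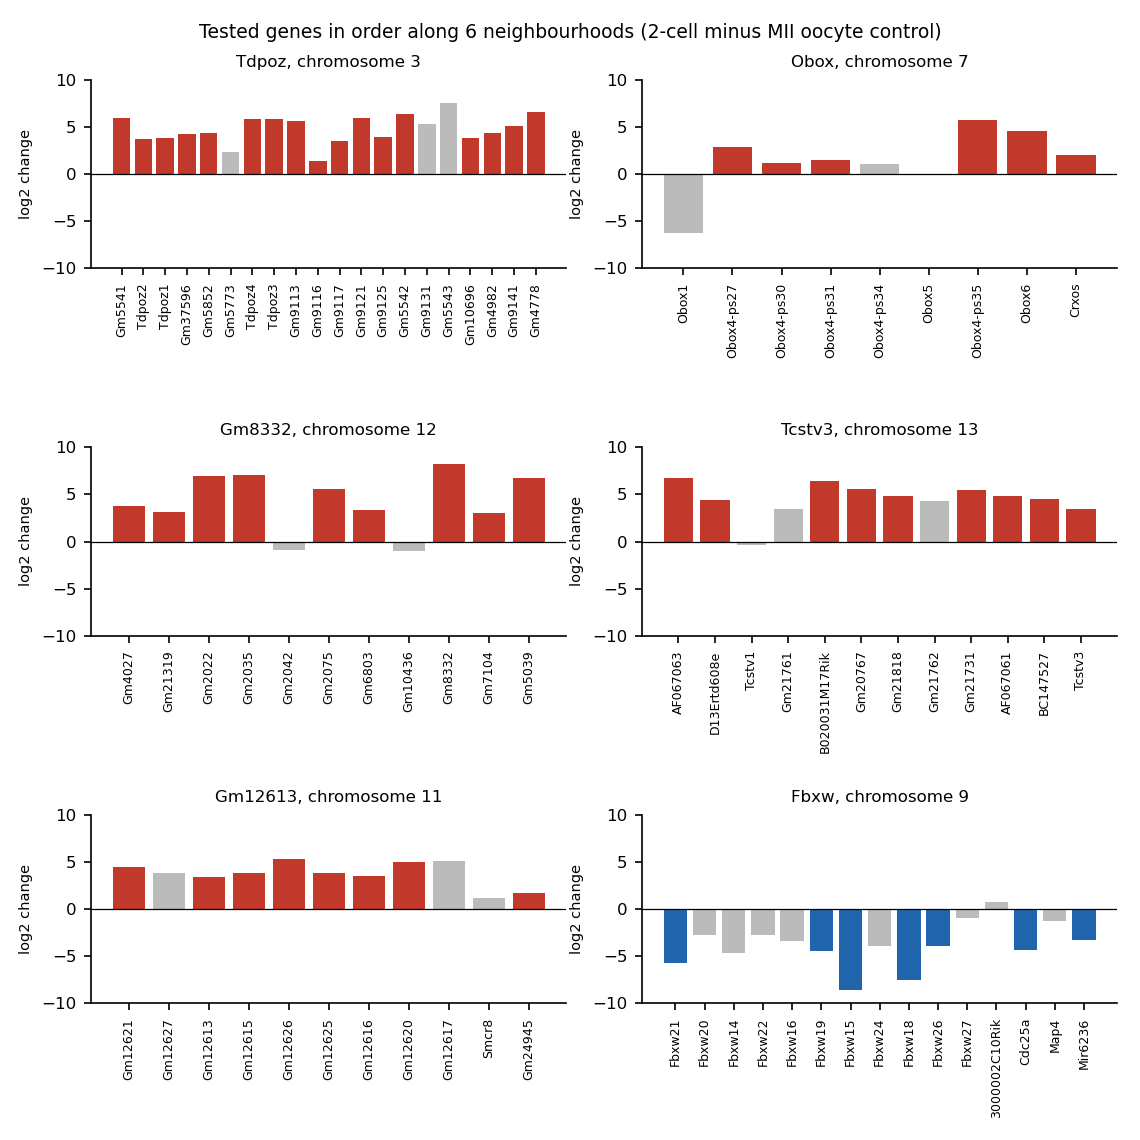
Log2 change (2-cell minus MII oocyte, FPKM as deposited) of each tested gene in order along 6 chromosome neighbourhoods named by a leading gene. Red and blue bars were called higher and lower under all 5 scalings and grey bars were not; 17 of 20 bars are red in the Tdpoz region and 7 of 15 are blue in the Fbxw region. Bars of genes listed at 0 at one stage depend on the added 1 FPKM.

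The Obox homeobox family, which has both maternal and zygotic members, moved in both directions. Of 30 genes in the table, 14 were tested, 10 rose and 2 fell, with a median log2 change of 1.11. Obox2 stood at 697 and 817 FPKM in oocytes and had an entry of 0 in both 2-cell libraries (adjusted p = 1.2e-05). Obox7 fell from 372 and 421 to 32.7 and 27.4 FPKM (-3.68 ± 0.40, adjusted p = 0.0007). Obox5 stayed high, at 241 and 282 FPKM in oocytes against 186 and 300 FPKM in 2-cell embryos (adjusted p = 0.797). Obox1 stood at 761 and 947 FPKM in oocytes, but at 129 and 0 in 2-cell embryos (adjusted p = 0.0507).

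The Obox members that rose were pseudogene copies of Obox4 and Obox6 and Obox6 itself. Obox4-ps35 stood at 56.2 and 46.3 FPKM after being listed at 0 (adjusted p = 0.00257). Obox6, also listed at 0 in oocytes, reached 5.51 and 80.7 FPKM, and its adjusted p of 0.0308 rose to 0.13 without 2-cell control replicate 2. The other 8 stayed below 11 FPKM in every library.

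Transcription factors of pluripotency and the first lineages were divided. Of 10 tested, 3 rose, 1 fell and the median log2 change was 0.69. Gabpa, an ETS factor, was listed at 0 in oocytes and stood at 21 and 46.5 FPKM in 2-cell embryos (adjusted p = 0.00186). Id2, an inhibitor of basic helix-loop-helix factors, stood at 24.5 and 32.3 FPKM after being listed at 0 (adjusted p = 0.00291). Utf1 rose to 5.64 and 3.97 FPKM. Sall4, a zinc-finger factor of pluripotent cells, fell from 235 and 273 to 0.337 and 0.197 FPKM (-7.65 ± 0.79, adjusted p = 0.000598) and stood at 105 and 110 FPKM in the 4-cell controls. Pou5f1 had 44.9 and 60.4 FPKM in oocytes against 52.3 and 62.4 FPKM in embryos (adjusted p = 0.82).

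Other DNA-binding factors gave few calls. Of 11 Klf and Sp factors tested, Klf4 rose, from 0.722 and 0.0974 to 5.14 and 10.4 FPKM, and Klf7 fell as deposited but not under all scalings (adjusted p = 0.0475, and 0.187 without 2-cell control replicate 2). Of 4 oocyte transcription factors tested, 0 were called in limma, and 1, Sohlh2, had an unadjusted p below 0.05 (adjusted p = 0.0823). The sign of its median against all genes changed with the scaling. Among 110 Zfp zinc-finger genes tested, 7 rose and 27 fell, with a median of -0.64, close to that of all genes. Zfp707 rose from 0 and 0.0382 to 31.4 and 75.3 FPKM, and Zfp955b went from 315 and 250 FPKM to being listed at 0 (adjusted p = 0.00255).

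The deepest falls took abundant transcripts to near 0. Txnip, whose protein inhibits thioredoxin and glucose uptake, went from 1109 and 1017 to 0.210 and 0.250 FPKM, a log2 change of -9.76 ± 0.33 (adjusted p = 1.2e-05). Zar1, which binds and stores maternal mRNA, went from 1189 and 1538 to 1.70 and 0.00486 FPKM (-9.68 ± 0.85, adjusted p = 0.000293). Bub1b, which encodes the spindle checkpoint kinase BUBR1, fell from 423 and 678 to 0.132 and 0.432 FPKM (-8.72 ± 0.44, adjusted p = 2.84e-05). The naming rule took only genes whose oocyte and 2-cell values did not overlap, so the separation in these 3 genes follows from selection.

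Other genes named by the rule kept their call with every library left out. Dsn1, a kinetochore subunit, fell by 8.62 on the log2 scale, Cd55, a complement regulator, by 7.56 and Noct, a circadian gene of the deadenylase family, by 7.18. Dsn1 stood at 105 and 67.8 FPKM in the 4-cell controls, and Cd55 at 0.0494 and 0. The calls of Klhl8, Clk1, Katna1, Serpine2 and Uqcrc2 were lost when single libraries were left out, with highest adjusted p from 0.0718 to 0.132, and those of Serpine2 and Uqcrc2 also depended on the scaling.

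Plat, Dnajc3, Fbxw15 and Cept1 joined Obox2 among the most abundant transcripts listed at 0 in both 2-cell libraries. Plat, the tissue plasminogen activator whose mRNA is a classic dormant message of the oocyte, stood at 629 and 794 FPKM in oocytes (adjusted p = 1.2e-05). Dnajc3, a co-chaperone of the endoplasmic reticulum, stood at 385 and 447 FPKM (adjusted p = 0.00259). All 5 kept the call under every scaling and with every library left out.

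Among oocyte surface and secreted factors, 6 of 12 tested fell, 0 rose and 3 fell under every scaling, with a median of -1.55. Gdf9, a growth factor that acts on cumulus cells, fell from 3248 and 3888 to 143 and 127 FPKM (-4.71 ± 0.50, adjusted p = 0.000649). Its partner Bmp15 stood at 605 and 449 FPKM in oocytes against 787 and 436 FPKM in embryos (adjusted p = 0.761). Astl, the protease that cleaves the zona after fertilization, went from 25.2 and 46.7 FPKM to being listed at 0. Zp3, the zona protein that binds sperm, had 158 and 254 FPKM in oocytes against 19.4 and 0 in embryos, with an adjusted p of 0.0459 that rose to 0.215 without 2-cell control replicate 2. Zp2 stood at 67.9 and 76.6 FPKM against 48.5 and 39.7 FPKM (adjusted p = 0.133).

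The subcortical maternal complex, a protein assembly under the egg membrane that is needed for the first cleavages, had 4 of 8 members that fell, 2 of them under every scaling, and a median of -2.57. Tle6 fell from 169 and 66.5 to 0.672 and 0.805 FPKM (-5.95 ± 0.84, adjusted p = 0.00213). Khdc3 fell from 33.9 and 75.2 to 1.01 and 0 FPKM (adjusted p = 0.000618), and stood at 50.5 and 41.3 FPKM in the 4-cell controls. Nlrp4f, another component, had 598 and 469 FPKM in oocytes against 403 and 290 FPKM in embryos (adjusted p = 0.313). Padi6 went from 802 and 765 to 78.1 and 89.4 FPKM, yet was not called (adjusted p = 0.162), with a standard error of 1.61 from the spread over all 10 libraries.

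Oocyte-restricted multigene families differed from each other. In the Fbxw cluster, which encodes F-box and WD-repeat proteins, 9 of 11 members fell, 5 under every scaling, and the median was -3.94. Fbxw15 went from 451 and 356 FPKM to being listed at 0, and Fbxw18 from 1088 and 1084 to 33.7 and 0 FPKM. Fbxw27, at 60.2 and 27.7 FPKM against 21.2 and 20.5 FPKM, was not called (adjusted p = 0.221). Of 10 Nlrp genes, 5 fell as deposited and 0 under all scalings, and Nlrp9c had 300 and 512 FPKM against 431 and 313 FPKM (adjusted p = 0.899). Of 4 Oas genes, 3 fell. Oas1d went from 4781 and 4877 to 266 and 287 FPKM as deposited, and Oas3, at 1.57 and 2.0 against 0.342 and 0.0448 FPKM, was the one that fell under every scaling.

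The oogenesin and Prame-like genes moved in both directions. Of 8 tested, 3 rose and 1 fell. The maternal Oog1 stood at 363 and 300 FPKM in oocytes against 239 and 340 FPKM in embryos (adjusted p = 0.651), whereas Pramef6, listed at 0 in oocytes, reached 6.61 and 35.6 FPKM (adjusted p = 0.00392). Tcl1, an Akt co-activator, had 1568 and 1630 FPKM in oocytes against 108 and 836 FPKM in embryos, which was not called.

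**Figure D5:**
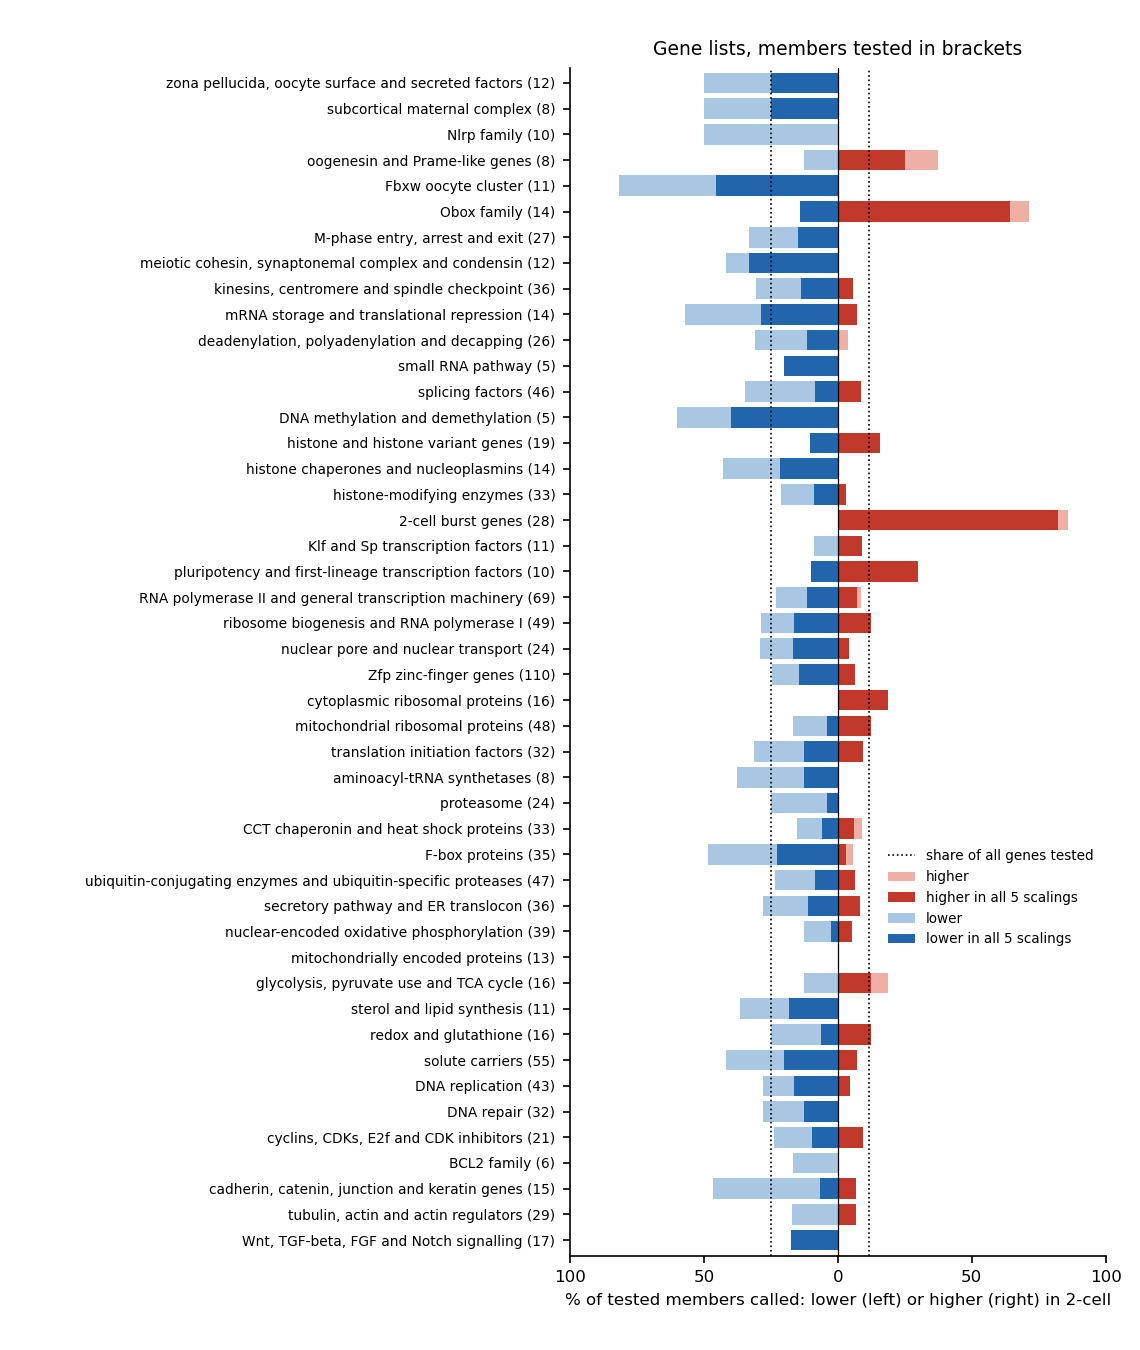
Share of the tested members (number in brackets) of each gene list with at least 5 tested called lower (blue, left) or higher (red, right) in 2-cell embryos, dark where the call remained under all 5 scalings. Dotted lines are the shares of all 5947 genes tested, 24.8% lower and 11.7% higher; 2-cell burst genes and the Obox family extend farthest to the right and the Fbxw cluster farthest to the left.

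Genes that hold or end the meiotic arrest included falls and, as deposited, no rises. Of 27 genes of M-phase entry, arrest and exit tested, 9 fell, 4 under every scaling, and 0 rose (median -1.17), against 24.8% and 11.7% of all genes. With oocyte values halved 5 fell and 2 rose. Mos, the kinase that maintains the metaphase arrest, fell from 127 and 220 to 0.556 and 1.29 FPKM (-6.47 ± 0.57, adjusted p = 0.000293). Cdc27, a subunit of the anaphase-promoting complex, fell by 4.56 on the log2 scale, and Cdc25a, an activator of cyclin-dependent kinases, by 4.37. Wee2, an oocyte kinase that opposes them, had 420 and 369 FPKM in oocytes against 690 and 533 FPKM in embryos (adjusted p = 0.122). Cdc20 had 482 and 539 FPKM in oocytes against 0.176 and 58.8 FPKM in embryos, with an adjusted p of 0.0286 that rose to 0.13 without MII oocyte control replicate 2.

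Genes of the structural machinery of chromosome segregation are read against 24.8% lower and 11.7% higher among all genes. Of 12 cohesin, synaptonemal and condensin genes tested, 5 fell and 0 rose (median -2.98). Smc4, the core ATPase of condensin, fell from 170 and 194 to 0.559 and 0.850 FPKM (-6.75 ± 0.81, adjusted p = 0.0011). Of 36 kinesin, centromere and spindle checkpoint genes, 11 fell and 2 rose (median -1.10). The rises were Plk2, a polo-like kinase, from 0.729 and 0 to 23.7 and 18.2 FPKM, and Cenpl, a centromere protein, from 4.76 and 4.07 to 32.7 and 39.4 FPKM (2.77 ± 0.53, adjusted p = 0.00703).

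Factors that store and repress maternal mRNA were among the lists with the highest share of falls. Of 14 tested, 8 fell, 4 under every scaling, and 1 rose, with a median of -1.96. Besides Zar1, Cpeb1, which controls cytoplasmic polyadenylation, fell from 108 and 50.4 to 0.498 and 0.244 FPKM (-5.77 ± 0.39, adjusted p = 0.000106). Lsm14a, a component of P-bodies, fell from 66.7 and 91.1 to 0.515 and 0.228 FPKM (-5.86 ± 0.61). Cpeb4 had 34.7 and 36.2 FPKM in oocytes against 54.2 and 42.6 FPKM in embryos (adjusted p = 0.557). The rise was Marf1, a regulator of oocyte meiosis, from 4.63 and 3.96 to 14.4 and 12.6 FPKM, whose adjusted p of 0.0142 rose to 0.0612 without MII oocyte control replicate 2.

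Genes of deadenylation, polyadenylation and decapping, a list that also holds adaptors and poly(A)-binding proteins, had a share of falls near the 24.8% of all genes. Of 26 tested, 8 fell, 3 under every scaling, and 1 rose (median -1.51). Btg4, the adaptor that brings the CCR4-NOT deadenylase to maternal mRNA, remained among the most abundant transcripts, at 14252 and 15377 FPKM in oocytes against 8212 and 7265 FPKM in embryos. Its change of -0.94 was called as deposited and not under all scalings (adjusted p = 0.0062). Cnot11, a CCR4-NOT subunit, fell from 177 and 139 to 8.88 and 8.14 FPKM (-4.06 ± 0.42), and Pabpn1l, an oocyte poly(A)-binding protein, went from 52.7 and 59.5 FPKM to being listed at 0. The catalytic subunit Cnot7 had 195 and 169 FPKM against 191 and 109 FPKM (adjusted p = 0.726).

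Of 4 m6A genes tested, Ythdf3, a reader of this mark, went from 45.3 and 44.2 FPKM to being listed at 0 (adjusted p = 0.00674), and the others were not called. Of 5 small RNA pathway genes, Tnrc6b, a silencing adaptor, fell from 9.16 and 9.44 to 0.614 and 1.57 FPKM. Splicing factors gave 16 falls and 4 rises among 46 tested (median -1.12), of which 4 in each direction remained under every scaling. Among all genes, 24.8% fell and 11.7% rose as deposited. Snrpc, a U1 protein, rose from 0 and 0.670 to 68.04 and 89.96 FPKM (adjusted p = 0.000451). Hnrnpab went from 64.6 and 57.9 FPKM to being listed at 0 and then stood at 536 and 592 FPKM in the 4-cell controls.

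Several chromatin factors of the oocyte fell, while most histone genes tested were not called. H1foo, the linker histone of the oocyte, fell from 5458 and 5754 to 71.1 and 96.5 FPKM (-6.06 ± 0.68, adjusted p = 0.000779). Hist1h2aa fell from 85.4 and 96.0 to 9.58 and 5.65 FPKM. H3f3b, which encodes the replacement histone H3.3, stood at 1640 and 1199 FPKM in oocytes against 897 and 1068 FPKM in embryos (adjusted p = 0.293). Of 76 histone genes in the table, 19 were tested, 2 fell and 3 rose, and Hist1h2al, Hist1h2ba and Hist1h4a, the 3 that rose, stayed below 5 FPKM. Copies of the clustered histone genes share reads.

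Among 14 histone chaperones, 6 fell, 3 under every scaling, and 0 rose (median -1.70). Rbbp7, a histone-binding subunit of several chromatin complexes, fell from 5510 and 4796 to 640 and 514 FPKM (-3.16 ± 0.21, adjusted p = 0.000104), and Asf1a, a chaperone of H3 and H4, from 712 and 744 to 113 and 71.5 FPKM. Of 33 histone-modifying enzymes, 7 fell and 1 rose, beside 24.8% and 11.7% of all genes. Hdac2, a histone deacetylase, fell by 4.76 on the log2 scale and stood at 64.0 and 31.3 FPKM in the 4-cell controls. Of 5 genes of DNA methylation, 3 fell: Dnmt3a, the de novo methyltransferase, and Trim28 under every scaling, and Zfp57 as deposited, with an adjusted p up to 0.0543 when a library was left out.

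The general machinery of gene expression changed at about the shares of all genes tested, 24.8% lower and 11.7% higher. Of 69 RNA polymerase II and general transcription genes, 16 fell and 6 rose (median -0.83). Polr2b, the second largest subunit of the polymerase, rose from 0.370 and 0.408 to 18.7 and 29.6 FPKM (4.14 ± 0.42, adjusted p = 0.000558). Med20, a Mediator subunit, fell from 110 and 83.4 to 0 and 0.0277 FPKM, and the germ cell TFIIA subunit Gtf2a1l from 51.3 and 42.1 to 0 and 4.28 FPKM.

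Of 49 genes of ribosome biogenesis, 14 fell and 6 rose (median -0.58). Taf1d, a subunit of the polymerase I selectivity factor, rose from 1.75 and 2.71 to 25.8 and 67.03 FPKM (3.74 ± 0.57), and Nol10, a nucleolar protein, went from 192 and 76.7 FPKM to being listed at 0. Of 24 nuclear pore and transport genes, 7 fell and 1 rose, and Nup93, a scaffold nucleoporin, went from 71.9 and 59.6 FPKM to being listed at 0 (adjusted p = 1.2e-05).

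Few cytoplasmic ribosomal proteins could be tested. Only 16 of the 77 in the table reached the level for testing, 3 rose, under every scaling, and 0 fell, with a median of 1.52. Rps9 rose from 0 and 0.346 to 7.77 and 27.9 FPKM (adjusted p = 0.008), which rose to 0.0564 without MII oocyte control replicate 1, and stood at 151 and 154 FPKM in the 4-cell controls. The calls of Rps14 and Rpl7l1 were also lost when single libraries were left out, with highest adjusted p of 0.086 and 0.0862. Of 48 mitochondrial ribosomal proteins, 6 rose, all under every scaling, and 8 fell, 2 under every scaling. Mrps7 rose from 1.30 and 1.65 to 15.6 and 14.2 FPKM (2.68 ± 0.46, adjusted p = 0.00434).

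Of 32 translation initiation factors, 10 fell and 3 rose (median -1.19), beside 24.8% lower and 11.7% higher among all genes. Eif1ad rose from 8.34 and 7.53 to 30.9 and 40.2 FPKM (2.02 ± 0.31, adjusted p = 0.00298). Eif4e, the cap-binding protein, moved from 0.565 and 0.604 to 65.1 and 80.7 FPKM, but its adjusted p of 0.036 rose to 0.145 without MII oocyte control replicate 2. Eif3e went from 125 and 135 FPKM to being listed at 0, and Eif3s6-ps1, a pseudogene copy of the same gene, from 80.3 and 82.96 to 4.67 and 8.0 FPKM, and the pair shares sequence. Of 8 aminoacyl-tRNA synthetases, 3 fell and 0 rose, led by Farsa, a subunit for phenylalanine.

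In the lists of protein turnover, as in all genes tested, falls (24.8% of all genes) outnumbered rises (11.7%). Of 35 F-box genes, including the Fbxw cluster, 17 fell and 2 rose (median -2.06), and Fbxl6 went from 195 and 299 FPKM to being listed at 0. Of 24 proteasome genes, 6 fell, near the share of all genes, and 1 under every scaling. Of 47 ubiquitin-conjugating enzymes and ubiquitin-specific proteases, 11 fell and 3 rose, also near those shares (median -0.70). Ube2a, which ubiquitinates histone H2B, rose from 9.81 and 10.3 to 121 and 140 FPKM (3.57 ± 0.32, adjusted p = 0.000338). Uba3, of the NEDD8 pathway, fell from 26.7 and 50.9 to 0.0394 and 0.0575 FPKM.

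Of 33 chaperonin and heat shock genes, 5 fell and 3 rose, with a median of -0.22, beside 24.8% lower and 11.7% higher among all genes. Dnajb1 stood at 83.6 and 64.1 FPKM in oocytes against 111 and 93.4 FPKM in embryos (adjusted p = 0.234). Hsp90aa1 had 801 and 17.5 FPKM in the oocyte libraries, so its replicates disagreed. Of 36 genes of the secretory pathway, 10 fell and 3 rose (median -0.71), near the shares of all genes. Copb2 of the COPI coat rose from 0.638 and 0.475 to 18.96 and 17.6 FPKM (3.63 ± 0.36), whereas Sec23a of the COPII coat fell from 69.6 and 58.6 to 0.288 and 0.350 FPKM (-5.62 ± 0.33, adjusted p = 5.62e-05).

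Calls of mitochondrial transcripts depended on the scaling. As deposited, all 13 mitochondrially encoded proteins were tested in limma, 0 were called and 0 had an unadjusted p below 0.05, whereas 2 were called higher at equal medians, 3 with oocyte values halved, 3 after quantile normalization and 5 at equal sums. mt-Cytb stood at 2784 and 2732 FPKM in oocytes against 4017 and 3773 FPKM in embryos (adjusted p = 0.443), and was called higher under each of the other 4 scalings. The part of mitochondrial genes in the FPKM sum was 2.02% and 2.23% in oocytes and 5.34% and 4.87% in 2-cell embryos. Of 39 nuclear-encoded genes of oxidative phosphorylation, 5 fell, 1 under every scaling, and 2 rose (median 0.45), beside 24.8% lower and 11.7% higher among all genes. Cyc1, of complex III, was listed at 0 in oocytes and stood at 8.43 and 13.5 FPKM in embryos. Atp5b, of the ATP synthase, had 419 and 411 FPKM against 267 and 226 FPKM, and its call and direction depended on the scaling. Its adjusted p of 0.0337 rose to 0.142 without 2-cell control replicate 2, and the call was lost with each of the other 3 libraries left out too.

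In central metabolism, 3 of 16 genes rose and 2 fell (median 0.21), beside 11.7% higher and 24.8% lower among all genes tested. Aldoa, a glycolytic aldolase listed at 0 in oocytes, reached 9.38 and 19.7 FPKM (adjusted p = 0.00063), while Mdh1, the cytosolic malate dehydrogenase, fell from 98.9 and 117 to 11.5 and 23.3 FPKM as deposited and not under all scalings. Mdh2, its mitochondrial form, moved the other way, from 0.114 and 0.188 to 14.2 and 33.8 FPKM, with an adjusted p of 0.0379 that rose to 0.162 without 2-cell control replicate 2. Sterol and lipid synthesis gave 4 falls among 11 genes (median -2.15), with the fatty acid elongase Elovl5 going from 51.6 and 45.3 FPKM to being listed at 0. Of 16 redox genes, 4 fell and 2 rose, at about the shares of all genes. Gclm, of glutathione synthesis, fell by 4.27 on the log2 scale.

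Solute carriers were a group with many falls, 23 of 55 tested, 11 under every scaling, against 4 rises (median -1.47). Slc16a10, an aromatic amino acid transporter, went from 48.9 and 61.6 FPKM to being listed at 0 (adjusted p = 3.93e-05). Slc23a2, a vitamin C transporter, fell from 150 and 164 to 0.0997 and 12.8 FPKM (-5.34 ± 1.02).

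Shares of DNA replication and repair genes that fell were near the 24.8% of all genes. Of 43 replication genes, 12 fell and 2 rose (median -1.67), and of 32 repair genes 9 fell and 0 rose (median -1.72). Mcm4, a subunit of the replicative helicase, went from 77.1 and 37.2 FPKM to being listed at 0 (adjusted p = 0.000569). Smug1, a uracil glycosylase of base excision repair, went from 61.4 and 64.5 FPKM to being listed at 0. Rpa2, of the single-strand binding complex, moved from 0.174 and 0.173 to 43.1 and 68.4 FPKM, with an adjusted p of 0.0212 that rose to 0.104 without MII oocyte control replicate 2.

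Of 21 cyclins, E2f factors and kinase inhibitors, 5 fell and 2 rose, near the 24.8% and 11.7% of all genes. The sign of the list's median against all genes changed with the scaling. Cdkn1b, the inhibitor p27, fell from 10.3 and 15.3 to 3.79 and 2.70 FPKM as deposited, and Ccna2 stood at 69.9 and 79.2 FPKM against 88.4 and 86.4 FPKM (adjusted p = 0.832). Bcl2l10, a survival factor and the most abundant oocyte transcript of the table, went from 19660 and 22153 to 4196 and 3698 FPKM (-2.40 ± 0.49). Its adjusted p of 0.00961 rose to 0.0677 without MII oocyte control replicate 2, and the call depended on the scaling. The other 5 members of the BCL2 family tested were not called.

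Among junction and cytoskeletal genes, Cfl1, the actin-severing cofilin, rose from 109 and 227 to 1121 and 984 FPKM (2.73 ± 0.36, adjusted p = 0.00161). Of 29 tubulin and actin genes, 5 fell and 2 rose, beside 24.8% and 11.7% of all genes. The sign of the list's median against all genes depended on the scaling. Of 15 cadherin, catenin, junction and keratin genes, 7 fell, 1 under every scaling, and 1 rose. Gjb2, a gap junction connexin, fell from 12.2 and 10.1 to 1.29 and 0.921 FPKM (-2.53 ± 0.27, adjusted p = 0.000681). Of 17 genes of Wnt, TGF-beta, FGF and Notch signalling, 3 fell, all under every scaling, and 0 rose. Bmpr1b, a receptor of the BMP family, went from 43.8 and 24.6 FPKM to being listed at 0, and Fgfr2 fell from 18.7 and 27.6 to 1.26 and 2.01 FPKM.

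Abundant transcripts with a small change were chosen by that change. The 5 most abundant genes with an absolute log2 change below 0.5 were mt-Cytb, mt-Rnr2, mt-Co1, the lincRNA Gm1965 and C87977. Gm1965 stood at 2726 and 2540 FPKM in oocytes against 2783 and 2504 FPKM in 2-cell embryos, and at 6.57 and 10.3 FPKM in the 4-cell controls. C87977 stood at 1202 and 997 FPKM against 900 and 1288 FPKM. In the 4-cell controls it stood at 5.81 and 7.27 FPKM. Their small changes are those of FPKM as deposited. With oocyte values halved, Gm1965 (adjusted p = 0.0352) and mt-Cytb (adjusted p = 0.0482) were called higher.

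The annotation of the genes that rose and fell, which the selection did not use, is given as a description. Of the genes higher under all 5 scalings that had an annotation, 28.6% were pseudogenes and 37.3% had a single exon, against 14.5% and 19.5% of all genes tested. Of those lower, 7.13% were pseudogenes and 12.4% had a single exon. The median gene span was 3.96 kb for the higher genes, 22.3 kb for the lower and 14 kb for all. Genes with 1 annotated transcript had a median log2 change of -0.07 and those with 9 or more -0.83, so the level of change also moved with the number of transcripts over which reads were shared. The share called higher under all scalings was 18.6% in the first group and 5.13% in the second, while the share called lower was 8.99% and 9.96%. How much of these differences comes from the assignment of reads to copies and transcripts was not tested.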

How the data were processed

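The authors made the deposited FPKM values, 1 per gene name and library: Trim Galore removed adapters, HISAT2 2.1.0 placed reads on mm10 (GRCm38) and StringTie estimated expression. How transcripts were merged into gene rows is not given in the sources used here. All columns belonged to a sample. Read counts were not used, so depth and counting error are unknown. Positions and biotypes came from GENCODE M21 by gene name (20460 of 21437 matched).

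Genes with at least 1 FPKM in 2 of the 4 libraries were tested two-sided on log2(FPKM + 1) in limma 3.58.1 (R 4.3.3; trend, empirical Bayes; 5 group means over all 10 libraries; 5 residual degrees of freedom), with Benjamini-Hochberg adjustment over 5947 genes. A change on this scale understates that of low genes. In data simulated with this design, where 200 of 5947 genes changed by 3 log2 units, 102 of the 200 and 7 unchanged genes were called. The real comparison called 36.4% of genes, a larger share than was changed there, so 102 of 200 does not give its sensitivity. Named genes were, in each direction, the 12 largest changes among genes above 0 in all 4 libraries with a mean of at least 20 FPKM, the 5 highest genes listed at 0 at the other stage, and up to 3 per list with a mean of at least 10 FPKM, besides 5 abundant genes that changed by less than 0.5. The changes named by this rule were taken only from called genes whose oocyte and 2-cell values did not overlap. Other list members were named for their role, after their values were seen. The members, lists and comparisons were chosen with earlier results of these data known. Promoters came from RefSeq (GRCm38.p6).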

Additional observations from a re-analysis of the deposited data

How the results depend on the processing

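The counts of genes higher and lower in 2-cell embryos (694 and 1473 as deposited) moved by over 1.5 times under some alternatives. Scaling gave 826 lower at equal medians, 931 lower after quantile normalization, and 1165 higher and 721 lower at equal sums. A mean of at least 5 FPKM gave 381 higher. With 1 library left out, 376 to 538 genes were higher and 938 to 1123 lower. Chosen after seeing the data, halved oocyte values gave 819 lower, and genes with 1 annotated transcript alone, of which fewer were tested, 345 higher and 368 lower. Apart from that construction, the cause was not tested. The direction reversed for Atp5b, with log2 changes of 0.24 with oocyte values halved, 0.44 after quantile normalization and 0.43 at equal sums, and for mt-Rnr2, 1.04 after quantile normalization. Among genes not called as deposited the sign also turned with oocyte values halved for mt-Rnr2 (0.84), mt-Co1 (0.73) and C87977 (0.98), which stayed uncalled. Deviations of same-numbered oocyte and 2-cell libraries from their stage means had a correlation of -0.04 over the genes tested. Whether same-numbered libraries were paired cannot be told from this. A replicate block gave 679 higher and 1423 lower. Of 189 named results, 15 lost their call with the block, 40 with oocyte values halved and 45 to 75 with 1 library left out. The counts of list members higher or lower moved by over 1.5 times in 41 of 92 cases at equal medians, 45 after quantile normalization, 47 with oocyte values halved, 58 at equal sums, 43 without either oocyte library, 23 without 2-cell control replicate 1 and 36 without replicate 2. Only the 4 libraries, only the 6 control libraries, a smaller pseudocount (0.1), testing without a filter, a minimum fold and an unadjusted threshold kept both counts within 1.5 times. Without read counts, the depth behind low values is unknown.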
